A study of Danio rerio with 12 samples.

Results

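Sema6A morphants were compared directly with plexinA2 morphants, over all genes measured and by tissue. The comparison took the 4 sema6A morphant arrays and the 4 plexinA2 morphant arrays, 8 of the 12 arrays of the study, by their labels, and no control array entered the fit. All embryos were zebrafish (Danio rerio) of the rx3:GFP strain, a line whose green fluorescent reporter is named for rx3, a transcription factor gene of the eye field. Both morphant groups had received an antisense morpholino at the 1-cell stage, against Semaphorin6A in one group and PlexinA2 in the other. A morpholino is a modified oligonucleotide that blocks translation or splicing of its target RNA, so the groups model a transient knockdown and carry no mutant allele. The control group was of the same strain and is labelled wild-type; no injection is named for it, so the direct comparison is the one in which both sides had been injected. Embryos of every group were taken at 18 hours postfertilization, also given as the 18 somite stage at 25 °C. Replicates are labelled biological, but separate clutches are not stated, so p-values measure the spread between these arrays. How many embryos went into an array is not stated. The rows of the targeted genes were not analysed here, so the knockdown itself was not checked.

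PlexinA2 is a cell surface receptor and Sema6A is a membrane-bound semaphorin that binds it. Semaphorin and plexin signalling acts on the cytoskeleton and on adhesion, and is best known for guiding axons and migrating cells. In the zebrafish optic vesicle this ligand and receptor have been studied for how they keep retinal precursors together. At the stage sampled, an embryo is laying down somites, its first muscle fibres, primitive blood and the notochord, so RNA of embryos mixes all of these.

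Expression was measured by 1-colour Cy3 labelling on NimbleGen arrays. Each value below is the log2 of an authors' linear intensity, called the level, and each difference is the sema6A mean minus the plexinA2 mean on that log2 scale. A row of the table is an Ensembl gene identifier, and 4349 of the 5134 rows had a symbol. Levels are compared between arrays for a gene, never between genes. The median SD of a row was 0.423 among the sema6A arrays, 0.298 among the plexinA2 arrays and 0.539 among the controls. Replicate 1 of the sema6A group stood apart from its group: its mean rank correlation with the other 3 was 0.903, against 0.929 to 0.946 for those and 0.967 to 0.976 among the plexinA2 arrays. Without it the median SD of the sema6A group was 0.315. Counts and medians of the 6 tissues are therefore given with and without that array. In bulk RNA of embryos, fewer cells of a type and less RNA per cell cannot be told apart.

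The morphant groups differed in 743 of 5134 rows, or 14.5%, at a limma adjusted p under 0.05, which is what "called" means below. Of these, 296 rows (5.77%) were higher and 447 (8.71%) lower in sema6A morphants, so 39.8% of the calls were higher. The share of higher calls was scale-dependent, at 51.4% after quantile normalization and 52.3% after centring each array on its median. The median difference over all rows was 0.00 and lay between -0.01 and 0.06 under every setting tried. The smallest difference called was 0.72. In 656 of the called rows the 4 sema6A arrays did not overlap the 4 plexinA2 arrays, against 1217 of all rows, or 23.7%. Calls depended on single arrays: 121 rows were called in each of the 8 fits that left out 1 array. Without sema6A replicate 1 the fit called 1525 rows (29.7%), 719 higher (14%) and 806 lower (15.7%), and 730 of the 743 were among them. Without plexinA2 replicate 1 it called 163.

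**Figure D1:**
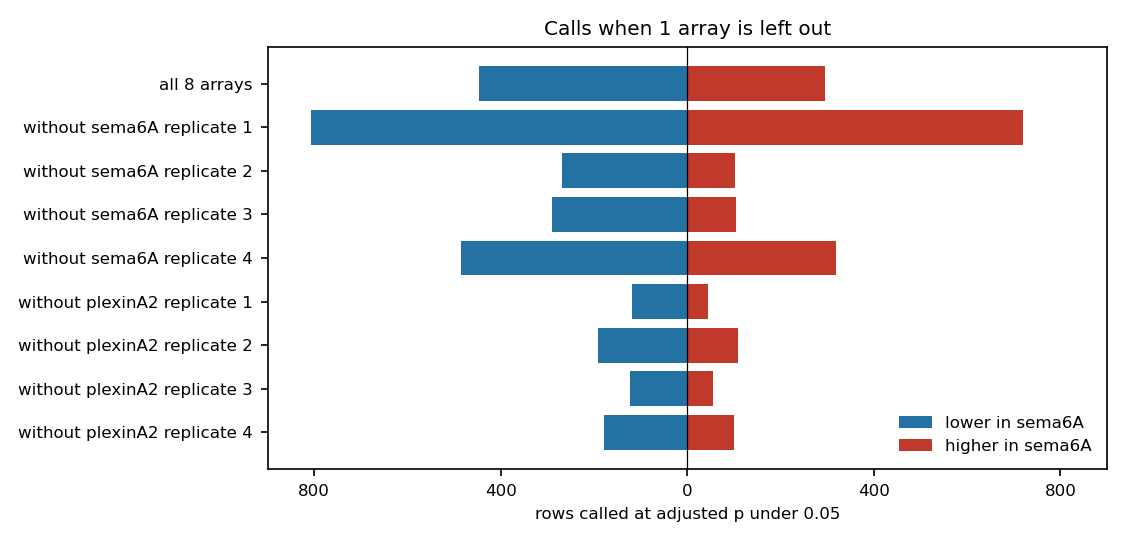
Number of rows called at an adjusted p under 0.05 in the fit of all 8 arrays and in the 8 fits that left out 1 array. The horizontal axis counts rows, with rows lower in sema6A morphants to the left and rows higher to the right; totals run from 163 without plexinA2 replicate 1 to 1525 without sema6A replicate 1.

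Muscle and extracellular matrix genes were 8 of the 12 largest falls in sema6A relative to plexinA2 morphants, among called, named rows whose groups did not overlap. Lack of overlap in those 12 was a condition of their choice. Of 83 muscle rows, 36 fell and none rose, with a median difference of -0.96. Of 82 matrix rows, 33 fell and 1 rose, with a median of -0.83. Blood rows fell in 14 of 51 with a median of -0.48. Eye rows fell in 4 of 48 with a median of -0.08. Mitochondrial rows rose in 6 and fell in 2 of 88, with a median of 0.37, and chaperone rows rose in 5 of 36, with a median of 0.45. The background is 8.71% of all rows lower and 5.77% higher. Leaving out sema6A replicate 1, the counts lower were 41 for muscle, 43 for matrix, 14 for blood, 7 for eye, 3 for mitochondria and 1 for chaperones, against 15.7% of all rows. The counts higher were 0 for muscle, 2 for matrix, 3 for blood, 3 for eye, 33 for mitochondria and 14 for chaperones, against 14% of all rows. The medians without that array were -0.67 for muscle, -0.73 for matrix, -0.33 for blood, 0.14 for eye, 0.51 for mitochondria and 0.50 for chaperones. With all 12 arrays in the fit, 88 of 5134 rows were called, 65 lower and 23 higher. The falls in that fit numbered 8 for muscle, 6 for matrix, 3 for blood, 1 for eye and 2 for mitochondria. No mitochondrial or chaperone row was called higher in it. Within the muscle list, 20 sarcomere and 17 excitation and metabolism rows fell without sema6A replicate 1, with medians of -0.74 and -0.79. Fibrillar and other collagens then fell in 5 and 8 rows with medians of -0.87 and -0.86. Erythroid rows fell in 10 and rose in 1 with a median of -0.60, and axon guidance rows fell in 16 with a median of -0.75.

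**Figure D2:**
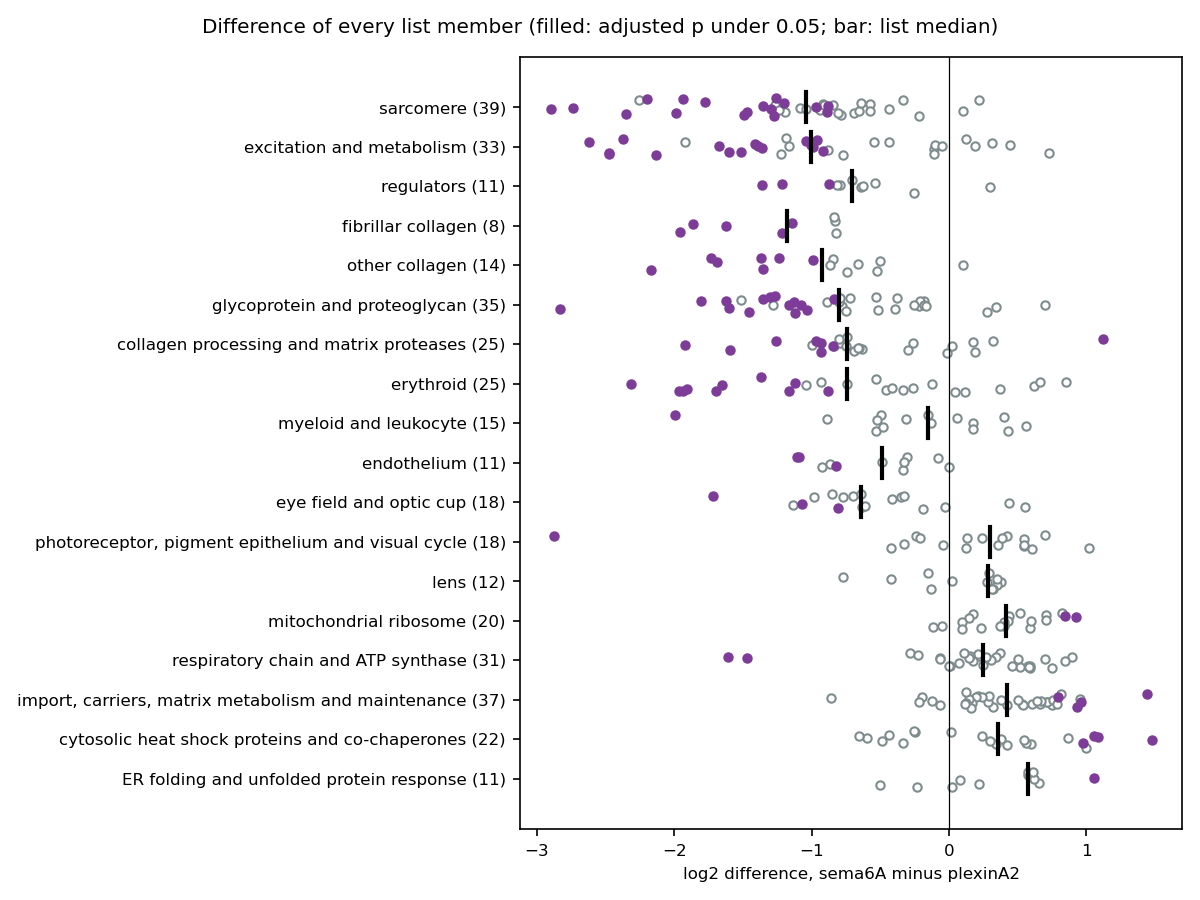
Log2 difference, sema6A minus plexinA2, of every measured member of lists with more than 2 rows. The lists are those of muscle, matrix, blood, eye, mitochondria and chaperones, with the number of rows in parentheses. Filled points are rows called at an adjusted p under 0.05, open points are the others and the black bar is the list median; muscle, collagen and erythroid rows lie mostly left of 0, with list medians of -1.04 for the sarcomere and -1.18 for fibrillar collagen, while mitochondrial and chaperone rows lie mostly right of it.

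A score per array, the median deviation of a list's rows from their means over the 8 morphant arrays, showed how each array took part. The muscle score was -1.28, -0.16, -0.13 and -0.27 in sema6A replicates 1 to 4 and lay between 0.49 and 0.53 in all 4 plexinA2 arrays. It was -0.24, -0.16, -0.16 and 0.83 in control replicates 1 to 4. The first 3 controls were thus close to sema6A replicates 2 to 4, and control replicate 4 was above every morphant array. The matrix score ran from -0.75 to -0.16 in sema6A and from 0.29 to 0.54 in plexinA2 arrays, with controls at -0.16, 0.04, -0.35 and 0.69. The mitochondrial score was -0.28, 0.32, 0.41 and 0.33 in sema6A replicates 1 to 4 and -0.17, -0.12, -0.42 and -0.05 in plexinA2 replicates 1 to 4. For mitochondria, then, sema6A replicate 1 lay with the plexinA2 arrays and the other 3 lay above them.

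**Figure D3:**
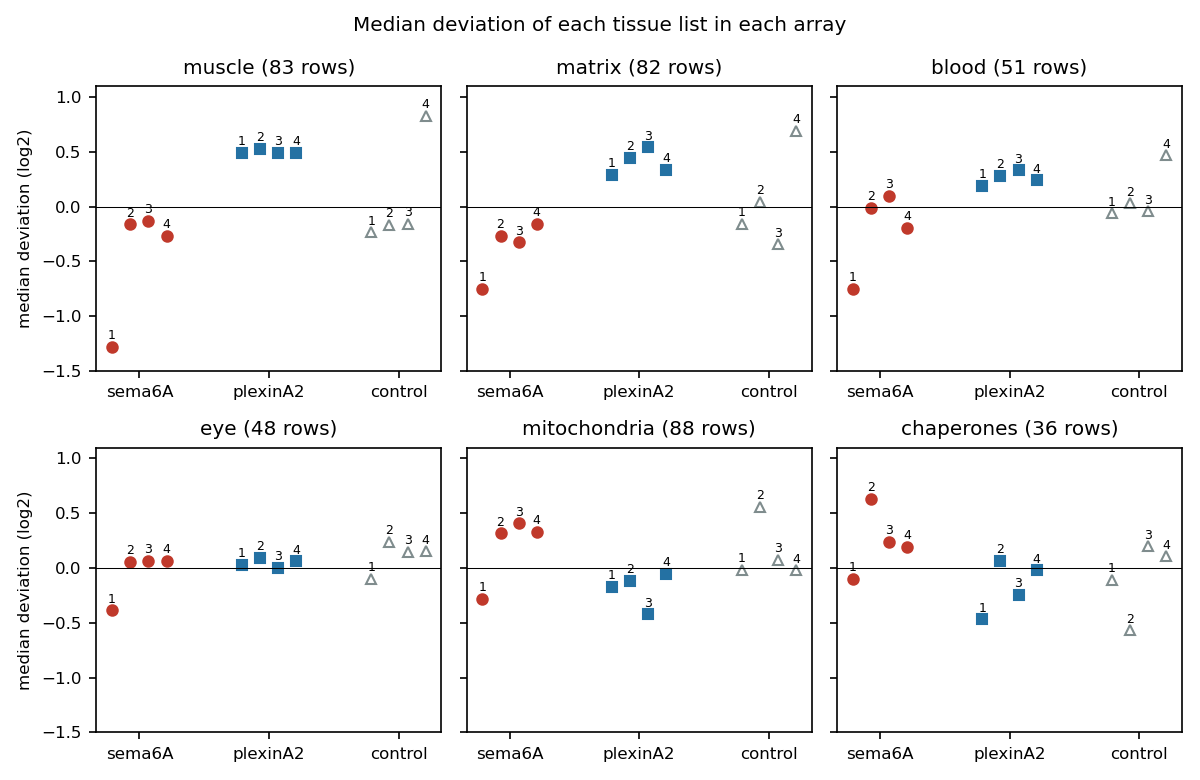
Median deviation (log2) of the rows of each tissue list in each array, relative to the row means over the 8 morphant arrays, with replicate numbers above the points. Circles are sema6A, squares plexinA2 and open triangles control arrays; in the muscle panel the plexinA2 arrays sit between 0.49 and 0.53, all above the 4 sema6A arrays, and control replicate 4 is highest at 0.83.

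Genes of the sarcomere, the contractile unit of striated muscle, fell in 17 of 39 rows, with a median of -1.04. XIRP2 (ENSDARG00000071113), an actin-binding protein of striated muscle, measured 5.71, 6.61, 7.41 and 6.87 in sema6A replicates 1 to 4 and 9.59, 9.53, 9.39 and 9.70 in plexinA2 replicates 1 to 4. The groups did not overlap, and the difference was -2.90 ± 0.31 (SE, n = 4 per group, limma adjusted p = 0.000104), or 7.47-fold lower in sema6A morphants. Control levels of XIRP2 were 7.59, 6.69, 6.62 and 9.73, so 3 controls lay near the sema6A arrays and control replicate 4 near the plexinA2 arrays. NEB, encoding nebulin along the thin filament, measured 7.66, 8.72, 8.37 and 9.26 in sema6A and 10.67, 10.68, 10.89 and 10.58 in plexinA2 arrays. Every plexinA2 array of NEB was above every sema6A array, at a difference of -2.20 ± 0.31 (limma adjusted p = 0.0008). Both rows named TTN, the giant spring of the sarcomere, fell, by 1.94 ± 0.34 and 1.49 ± 0.30. One of them, ENSDARG00000000563, measured 9.32, 7.99, 7.43 and 8.15 in sema6A and 10.41, 9.89, 10.48 and 9.87 in plexinA2 arrays. For TTN, sema6A replicate 1 was the highest array of its group, not the lowest. MYOM1, a protein of the M-band that cross-links thick filaments, fell by 1.99 ± 0.37, and FLNC, an actin cross-linker of muscle, fell by 1.47 ± 0.32 on 1 of its 2 rows, the other giving -0.69 ± 0.28 (adjusted p = 0.0905). XIRP2, NEB, both TTN rows, MYOM1 and the called FLNC row were called in each of the 8 fits that left out 1 array.

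In other contractile genes the size of the difference depended on sema6A replicate 1. The fast myosin heavy chain gene myhz1.3 measured 6.17, 11.04, 10.43 and 11.23 in sema6A and 12.62, 12.67, 12.28 and 12.24 in plexinA2 replicates 1 to 4. The sema6A arrays were all below the plexinA2 arrays and replicate 1 was far below the rest, for a difference of -2.73 ± 0.76 (limma adjusted p = 0.03). The difference of myhz1.3 was -1.55 without sema6A replicate 1, with a smaller adjusted p of 0.000926. The call was lost in the 4 fits that left out a plexinA2 array, at up to 0.0955 without plexinA2 replicate 1, while the difference there stayed between -2.81 and -2.66. TNNT3, the fast skeletal troponin T that holds the troponin complex on the thin filament, fell by 2.35 ± 0.51, and TNNC1, the calcium-binding troponin, by 1.78 ± 0.53. The second TNNT3 row did not pass, at -0.85 ± 0.36 (adjusted p = 0.109). The called TNNT3 row lost its call in 1 of 8 such fits, at 0.0576 without plexinA2 replicate 1, and TNNC1 in 4, at up to 0.128 without the same array. Both were called without sema6A replicate 1, at -1.70 and -1.01 (adjusted p = 0.00241 and 0.0123). The essential myosin light chain gene MYL1 did not pass, with a difference of -2.26 ± 0.77 (95% interval -3.89 to -0.62, limma adjusted p = 0.0577). Its levels were 8.93, 13.99, 13.80 and 13.70 in sema6A and 14.73, 15.01, 14.96 and 14.76 in plexinA2 replicates 1 to 4.

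Genes that couple excitation to contraction and fuel it fell in 16 of 33 rows, with a median of -1.01. RYR1, the calcium release channel of the sarcoplasmic reticulum, stood on 2 rows. The row ENSDARG00000023797 of RYR1 measured 7.58, 8.69, 8.17 and 8.70 in sema6A and 10.66, 10.33, 11.30 and 10.73 in plexinA2 replicates 1 to 4. The gap between the groups exceeded the range within either, at a difference of -2.47 ± 0.30 (limma adjusted p = 0.000423), and the second RYR1 row fell by 2.13 ± 0.33. CACNA1S, the voltage sensor that opens this channel, fell by 1.60 ± 0.33. PYGM, muscle glycogen phosphorylase, measured 6.45, 8.30, 8.45 and 8.11 in sema6A and 10.19, 10.37, 10.21 and 10.43 in plexinA2 replicates 1 to 4. On that row (ENSDARG00000055518) the difference was -2.47 ± 0.36 (limma adjusted p = 0.00122), and on the second PYGM row -1.04 ± 0.26. RYR1, CACNA1S and the first PYGM row kept their calls whichever array was left out.

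The calcium pump gene atp2a1, which refills the sarcoplasmic reticulum, and the creatine kinase gene ckma behaved like myhz1.3. The levels of ckma were 7.52, 12.07, 12.17 and 11.92 in sema6A and 13.17, 13.35, 13.07 and 13.58 in plexinA2 replicates 1 to 4. Replicate 1 was thus more than 4 units below the other sema6A arrays, and those 3 lay below all plexinA2 arrays. The difference of ckma was -2.37 ± 0.72 (limma adjusted p = 0.0404) and that of atp2a1 was -2.62 ± 0.74 (adjusted p = 0.0318). Without sema6A replicate 1 the differences were smaller, -1.24 for ckma and -1.46 for atp2a1, and so were the adjusted p values, 0.00251 and 0.000716. Each lost its call in the 4 fits that left out a plexinA2 array, at up to 0.108 and 0.0878 without plexinA2 replicate 1, where the differences were -2.41 and -2.71. Subunits of the muscle acetylcholine receptor, CHRND and CHRNB1, fell by 1.52 ± 0.35 and, on 2 rows, by 1.39 ± 0.34 and 0.99 ± 0.25. The junctophilin genes JPH1 and JPH2, which tie the surface membrane to the calcium store, were also called lower, JPH2 by 1.36 ± 0.37, or -0.90 without sema6A replicate 1. The myoglobin gene mb lay the other way without passing the test, at 0.73 ± 0.27 (adjusted p = 0.0724).

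Regulators of the muscle programme fell in 3 of 11 rows, beside 8.71% of all rows, with a median of -0.71. MEF2D and MEF2C, transcription factors that drive contractile genes, fell by 1.22 ± 0.27 and 1.36 ± 0.35, and EYA1, a transcriptional cofactor in myogenesis, by 0.87 ± 0.26. The second MEF2C row did not pass, at -0.81 (adjusted p = 0.0626). Nor did EYA4, MEF2A, PAX7, PAX3 and eya2, at -0.79, -0.71, -0.64, -0.62 and -0.54 (limma adjusted p = 0.0609 to 0.198). Of the 11 values of this list, 10 were below 0. The myogenic factors MYF5 and MYF6 were chosen with their values known. MYF5 measured 12.60, 12.22, 12.42 and 12.17 in sema6A and 12.53, 12.53, 12.96 and 12.42 in plexinA2 replicates 1 to 4. The groups overlapped, with a difference of -0.26 (95% interval -0.78 to 0.26, limma adjusted p = 0.457). MYF6 gave 0.30 (95% interval -0.36 to 0.96, adjusted p = 0.503). The list of somite segmentation and paraxial mesoderm genes, from which muscle arises, held 1 called row of 19, WNT8B, a Wnt ligand gene of the developing brain in fish, with a list median of -0.26. The somite list score was 0.47 in sema6A replicate 1, the array lowest for muscle, against -0.25 to -0.20 in sema6A replicates 2 to 4 and 0.12, -0.03, 0.50 and -0.12 in plexinA2 replicates 1 to 4. Control replicates 1 to 4 had somite scores of 0.70, 0.07, 0.70 and -0.46, the last from the array highest for muscle. The part of the somite score in the muscle result was not tested.

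Among large differences outside the muscle list, CAVIN1, a coat protein of caveolae, measured 7.02, 9.96, 9.13 and 10.74 in sema6A and 11.88, 12, 11.92 and 12.13 in plexinA2 replicates 1 to 4. The plexinA2 arrays were tightly grouped and all above the sema6A arrays, at a difference of -2.77 ± 0.53 (limma adjusted p = 0.00671). The sodium pump subunit gene atp1a1a.2 measured 5.76, 7.96, 7.90 and 6.72 against 9.45, 9.88, 9.62 and 9.59, a difference of -2.55 ± 0.39 (adjusted p = 0.00163). CAVIN1 and atp1a1a.2 were called in all 8 fits leaving out 1 array. Without sema6A replicate 1 their differences were smaller, at -2.04 and -2.11. Neither was called with all 12 arrays in the fit (limma adjusted p = 0.0535 for each).

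**Figure D4:**
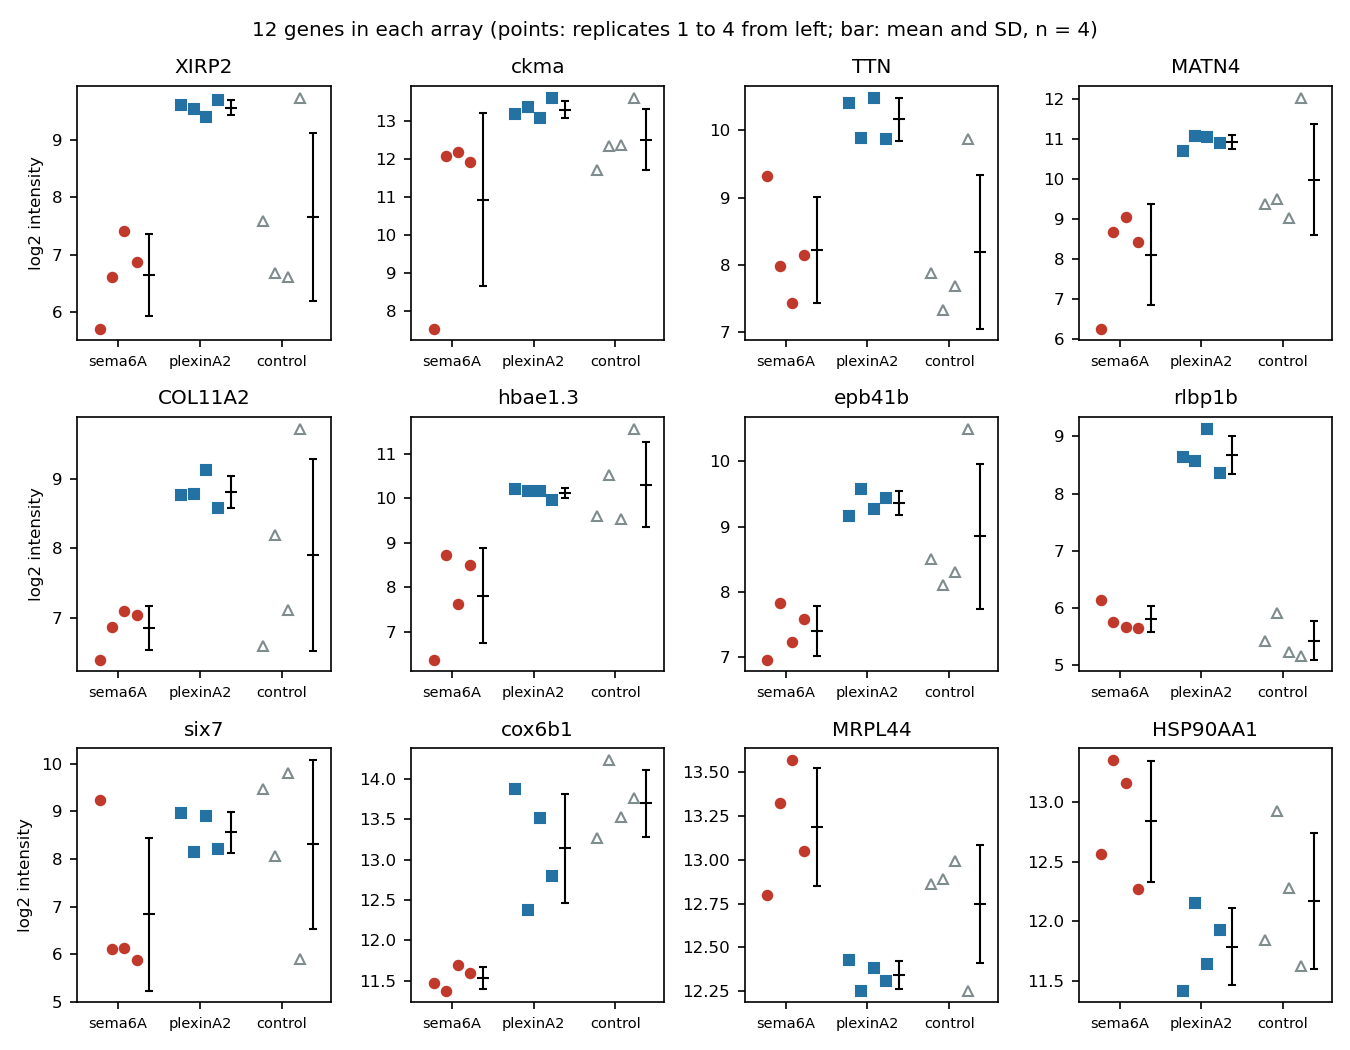
Log2 intensity of 12 genes in each array, with replicates 1 to 4 from left to right in each group and the group mean with its SD (n = 4) as a bar; each panel has its own vertical axis, which does not start at 0. XIRP2, MATN4, COL11A2, epb41b and rlbp1b separate the sema6A circles from the plexinA2 squares, while for six7 the first sema6A array lies above all plexinA2 arrays at 9.23. The TTN panel shows the row ENSDARG00000000563.

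Fibrillar collagens, the rope-like collagens of connective tissue, fell in 5 of 8 measured rows, and all 8 values were below 0. COL11A2 (ENSDARG00000012422), a minor fibrillar collagen of cartilage, measured 6.40, 6.87, 7.11 and 7.05 in sema6A and 8.77, 8.79, 9.13 and 8.58 in plexinA2 replicates 1 to 4. The groups were far apart relative to their ranges, at -1.96 ± 0.26 (limma adjusted p = 0.000793), a call kept whichever array was left out. Controls of COL11A2 spanned both groups, at 6.60, 8.20, 7.11 and 9.73. COL5A1 fell by 1.21 ± 0.27, a row named COL1A1 by 1.87 ± 0.49, col1a1a by 1.63 ± 0.46 and col11a1b by 1.15 ± 0.33. These 4 calls were each lost in 1 to 4 of 8 fits leaving out 1 array, at up to 0.099. Without sema6A replicate 1 the COL1A1 and col1a1a differences were -1.16 and -0.96, still called (adjusted p = 0.0038 and 0.00823). The remaining members, COL2A1, COL1A2 and COL5A2, gave differences of -0.84, -0.82 and -0.83 at adjusted p values of 0.0629, 0.069 and 0.0576. COL2A1, the main collagen of notochord sheath and cartilage, measured 13.04, 13.79, 13.57 and 14.48 in sema6A and 14.32, 14.41, 14.83 and 14.68 in plexinA2 replicates 1 to 4, so that sema6A replicate 4 lay among the plexinA2 arrays.

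Of the other collagens, 7 of 14 rows fell. They were COL12A1 and COL14A1, which bind the surface of fibrils, col7a1 of anchoring fibrils, col28a2a and the 3 genes of the collagen IX trimer. COL12A1 measured 9.34, 9.91, 10.19 and 10.02 in sema6A and 10.97, 10.99, 11.73 and 11.17 in plexinA2 replicates 1 to 4. Its groups did not overlap, and the difference of -1.35 ± 0.27 (limma adjusted p = 0.00891) was the only one among these 7 that was called in all 8 fits leaving out 1 array. The collagen IX genes col9a1b, col9a3 and COL9A2 fell by 1.69 ± 0.41, 1.73 ± 0.48 and 1.24 ± 0.40. Their calls were lost in 3, 5 and 7 of 8 such fits, at up to 0.111 for COL9A2 without plexinA2 replicate 1. COL9A2 without sema6A replicate 1 gave -0.80 (adjusted p = 0.0507).

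Matrix glycoproteins and proteoglycans fell in 14 of 35 rows and none rose, with a median of -0.80. MATN4 (ENSDARG00000015947), a matrilin that links matrix fibres, measured 6.25, 8.68, 9.04 and 8.43 in sema6A and 10.69, 11.07, 11.05 and 10.90 in plexinA2 replicates 1 to 4. All plexinA2 arrays were above all sema6A arrays by over 1.5 units, at a difference of -2.83 ± 0.44 (limma adjusted p = 0.00178), or 7.12-fold lower. Without sema6A replicate 1 the difference of MATN4 was -2.21. Basement membrane laminins were among the calls: lama4 fell by 1.62 ± 0.29, LAMB1 by 1.60 ± 0.32 and LAMB2 by 1.13 ± 0.28. FREM1 and FREM3, proteins of the embryonic epidermal basement membrane, fell by 1.46 ± 0.27 and 1.08 ± 0.25. The thrombospondin genes THBS3 and thbs2b fell by 1.27 ± 0.26 and 1.3 ± 0.30, and a second THBS3 row gave -0.78 (adjusted p = 0.0567). MATN4, lama4, LAMB1, FREM1, the first THBS3 row and thbs2b were called in every fit leaving out 1 array, and LAMB2 and FREM3 lost their calls in 2 and 1 of 8, at 0.0692 and 0.0502. The tenascin genes TNC and tnn did not pass, at -1.28 ± 0.44 and -1.51 ± 0.53 (adjusted p = 0.0577 and 0.0608).

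MFAP4, a microfibril-associated protein, was another called row of the glycoprotein and proteoglycan list. It measured 8.79, 10.39, 10.37 and 9.66 in sema6A, 11.08, 11.54, 10.58 and 11.42 in plexinA2 and 7.18, 6.96, 6.64 and 7.49 in control replicates 1 to 4. Both morphant groups lay above every control array, and sema6A was below plexinA2 by 1.35 ± 0.35 (limma adjusted p = 0.0216). That call was lost in 3 of 8 fits leaving out 1 array, at up to 0.0691 without plexinA2 replicate 1.

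Enzymes that build and trim the matrix fell in 7 of 25 rows and rose in 1. PAPSS2, which makes the sulphate donor for proteoglycans, measured 10.29, 9.21, 9.25 and 10.02 in sema6A and 11.57, 11.64, 11.61 and 11.64 in plexinA2 replicates 1 to 4. The plexinA2 arrays differed from one another by less than 0.1 and all were above the sema6A arrays, at a difference of -1.92 ± 0.28 (limma adjusted p = 0.00122) on the row ENSDARG00000056600. A second PAPSS2 row gave 0.32 ± 0.31 (adjusted p = 0.463). PAPSS1, the other enzyme of this step, was the single matrix row called higher, at 9.57, 9.58, 9.05 and 9.76 in sema6A against 8.14, 8.90, 8.03 and 8.42 in plexinA2 arrays. The difference of PAPSS1 was 1.12 ± 0.27 (adjusted p = 0.0184), lost in 2 of 8 fits leaving out 1 array. Lysyl oxidases, which cross-link collagen, were lower: LOXL3 fell by 1.60 ± 0.30 and LOXL1 by 0.97 ± 0.28. The collagen prolyl hydroxylase subunits P4HA2 and P4HA1 fell by 1.26 ± 0.29 and 0.93 ± 0.29. For P4HA1 the groups overlapped and the call was lost in 7 of 8 fits leaving out 1 array.

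Among blood genes, erythroid genes fell in 10 of 25 rows, with a median of -0.74, and 1 of 15 myeloid and leukocyte rows fell, with a median of -0.15. These counts stand beside 8.71% of all rows lower, and the lists were not tested against each other. Levels of hbae1.3 (ENSDARG00000089124), which encodes an embryonic alpha globin, were 6.37, 8.73, 7.63 and 8.50 in sema6A and 10.21, 10.17, 10.16 and 9.96 in plexinA2 replicates 1 to 4. Every sema6A array was below every plexinA2 array and below the lowest control, which ran from 9.53 to 11.56. The difference was -2.31 ± 0.39 (limma adjusted p = 0.00338). The globin genes hbae3 and hbbe3 fell by 1.94 ± 0.53 and 1.91 ± 0.56, each call being lost in 4 of 8 fits leaving out 1 array. The differences of hbae3 and hbbe3 without sema6A replicate 1 were -1.16 and -1.08 (adjusted p = 0.00571 and 0.00827). Not all erythroid rows lay on that side: the globin row HBE1 gave 0.67 ± 0.29, the red cell antigen gene XK 0.85 ± 0.33 and the haem-degrading enzyme gene HMOX1 0.62 ± 0.27 (adjusted p = 0.112, 0.0794 and 0.109). HBE1 was called higher without sema6A replicate 1, at 0.81 (adjusted p = 0.0366).

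Genes of the red cell membrane were also among the erythroid calls. The membrane skeleton gene epb41b measured 6.96, 7.82, 7.23 and 7.58 in sema6A and 9.16, 9.58, 9.27 and 9.44 in plexinA2 replicates 1 to 4. The arrays of epb41b were over 1 unit apart between groups, with a difference of -1.96 ± 0.26 (limma adjusted p = 0.000797). SPTB, the spectrin beta chain, fell by 1.69 ± 0.31, the anion exchanger gene SLC4A1 by 1.37 ± 0.26 and the water channel gene AQP1 by 1.65 ± 0.34. These 4 and hbae1.3 kept their calls whichever array was left out. The erythroid regulators gata1a and klf1 and the haem synthesis gene alas2 fell by 1.12 ± 0.32, 0.88 ± 0.26 and 1.17 ± 0.31, with calls lost in 6, 5 and 4 of 8 such fits. The largest adjusted p among gata1a, klf1 and alas2 was 0.104, for klf1 without plexinA2 replicate 3.

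The called row of the leukocyte list was LECT2, a secreted chemotactic factor, at 5.87, 6.27, 6.65 and 6.26 in sema6A and 7.87, 8.27, 8.03 and 8.86 in plexinA2 replicates 1 to 4. The controls of LECT2, from 5.60 to 6.48, overlapped the sema6A arrays and lay below all plexinA2 arrays. The difference between morphants was -1.99 ± 0.28 (limma adjusted p = 0.0008). Endothelial rows fell in 3 of 11, beside 8.71% of all rows. The scavenger receptor gene stab2 fell by 1.11 ± 0.30, robo4, a vascular Robo receptor, by 1.09 ± 0.31 and NOTCH1 by 0.82 ± 0.27. Those calls were lost in 4, 6 and 6 of 8 fits leaving out 1 array. The endothelial cadherin gene cdh5 gave -0.93 ± 0.36 and the receptor gene TIE1 -0.87 ± 0.39, neither passing (adjusted p = 0.0818 and 0.119).

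In the eye, counts are given for 3 lists, which were not tested against each other. Of 18 eye field and optic cup rows, 3 fell, 16 had values below 0 and the median was -0.64. Photoreceptor, pigment epithelium and visual cycle genes, most of which act later, had a median of 0.30 over 18 rows with 1 fall, rlbp1b. Without sema6A replicate 1 that list had 2 rows called higher, rlbp1a and RPE65, and 1 lower, beside 14% and 15.7% of all rows. Lens rows had a median of 0.28 over 12 rows with no call. Without sema6A replicate 1 the lens list had 1 row called higher and 1 lower, beside the same shares of all rows. The eye field share of 3 in 18 stands beside 8.71% of all rows, and without sema6A replicate 1 it was 5 in 18 beside 15.7%.

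PAX6, a master regulator of eye development, measured 12.08, 11.54, 11.05 and 10.26 in sema6A and 12.39, 12.25, 12.52 and 12.05 in plexinA2 replicates 1 to 4. The groups of PAX6 met at sema6A replicate 1, and the difference was -1.07 ± 0.33 (limma adjusted p = 0.0424). Without that array the difference of PAX6 was -1.35 (adjusted p = 0.00417). The homeobox gene six7 measured 9.23, 6.11, 6.14 and 5.88 in sema6A and 8.96, 8.14, 8.91 and 8.22 in plexinA2 arrays. Replicate 1 was the highest of the 8 arrays and the other 3 sema6A arrays the lowest, for a difference of -1.72 ± 0.55 (adjusted p = 0.0469) that became -2.52 without replicate 1 (adjusted p = 1.6e-05). Controls of six7 were as scattered, at 9.47, 8.06, 9.81 and 5.91. RORB, a nuclear receptor of the retina, fell by 0.81 ± 0.26 (adjusted p = 0.0496). PAX6, six7 and RORB each lost their calls in 7 of 8 fits leaving out 1 array, at up to 0.112, 0.142 and 0.122.

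The reporter's namesake rx3 (ENSDARG00000052893) measured 12.44, 9.76, 10.10 and 9.66 in sema6A and 11.81, 11.34, 11.87 and 11.47 in plexinA2 replicates 1 to 4. As for six7, sema6A replicate 1 was the highest of the 8 and the other 3 the lowest. The eye field and optic cup list as a whole did not share this pattern. Its score was -0.59, -0.28, -0.24 and -0.004 in sema6A replicates 1 to 4, so replicate 1 was lowest. The median difference of that list was -0.64, and -0.52 without sema6A replicate 1. The difference of rx3 did not pass, at -1.13 ± 0.46 (95% interval -2.11 to -0.15, limma adjusted p = 0.0941). Without sema6A replicate 1 the difference of rx3 was -1.78 and was called (limma adjusted p = 0.000199). The other 7 fits leaving out 1 array did not call it. The ventral optic genes VAX1 and VAX2 gave -0.77 ± 0.30 and -0.85 ± 0.34, with adjusted p values of 0.0858 and 0.0905.

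The largest eye difference was in rlbp1b (ENSDARG00000045808), which encodes a retinaldehyde-binding protein of the visual cycle. It measured 6.14, 5.75, 5.66 and 5.64 in sema6A and 8.64, 8.58, 9.14 and 8.35 in plexinA2 replicates 1 to 4. The groups were over 2 units apart, and the controls, at 5.41, 5.91, 5.23 and 5.15, lay with the sema6A arrays. The difference was -2.88 ± 0.26 (limma adjusted p = 1.04e-05), or 7.35-fold, and no array left out ended the call. The paralogue rlbp1a did not follow, with a difference of 0.55 ± 0.26 (95% interval -0.01 to 1.11, adjusted p = 0.145). Without sema6A replicate 1, rlbp1a was called higher at 0.76 and RPE65, another visual cycle gene, at 1.13 (adjusted p = 0.023 and 0.00993). PDE6B, of the rod photoreceptor, gave 1.02 ± 0.38 and did not pass (adjusted p = 0.0746).

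Mitochondrial genes lay mostly above 0, in 75 of 88 rows, against 2579 of 5134 rows over the whole table, but few passed the test. Rises were called in 6.82% of the mitochondrial rows, near the 5.77% of all rows. Of the mitochondrial ribosome, 2 of 20 rows rose. MRPL44 measured 12.80, 13.32, 13.57 and 13.05 in sema6A and 12.43, 12.25, 12.38 and 12.31 in plexinA2 replicates 1 to 4. Its groups did not overlap, at a difference of 0.84 ± 0.25 (limma adjusted p = 0.0363), and MRPL14 rose by 0.92 ± 0.25. These calls were lost in 6 and 5 of 8 fits leaving out 1 array. Without sema6A replicate 1, 10 of the 20 ribosomal rows were called higher, beside 14% of all rows.

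Among import, carrier and matrix enzyme genes 4 of 37 rows rose, or 10.8%, beside 5.77% of all rows. SLC25A32, a folate carrier of the inner membrane, measured 11.01, 11.31, 11.45 and 11.29 in sema6A and 9.0, 10.10, 9.77 and 10.42 in plexinA2 replicates 1 to 4. All sema6A arrays were above all plexinA2 arrays, at 1.44 ± 0.30 (limma adjusted p = 0.00962), whichever array was left out. The import gene chchd4b rose by 0.96 ± 0.25, the carrier gene slc25a24 by 0.93 ± 0.24 and the glutamate dehydrogenase gene glud1a by 0.79 ± 0.25. The calls of chchd4b, slc25a24 and glud1a were lost in 3, 5 and 6 of 8 such fits. Without sema6A replicate 1, 14 of the 37 rows were called higher and 1 lower, beside 14% and 15.7% of all rows.

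In the fit of all 8 arrays the respiratory chain held the exceptions, since its 2 called rows of 31 both fell although 25 of its values were above 0. The falls were 6.45% of its rows, beside 8.71% of all rows. Without sema6A replicate 1, 9 of the 31 rows were called higher and 2 lower, beside 14% and 15.7% of all rows. The cytochrome oxidase subunit gene cox6b1 measured 11.47, 11.38, 11.69 and 11.60 in sema6A, 13.87, 12.37, 13.51 and 12.80 in plexinA2 and 13.26, 14.24, 13.53 and 13.76 in control replicates 1 to 4. The sema6A arrays of cox6b1 agreed closely and were below every other array, with a difference of -1.61 ± 0.31 from plexinA2 (limma adjusted p = 0.00657). The gene ndufa4b, for another protein of the chain, measured 8.70, 8.92, 8.16 and 7.80 in sema6A and 10.45, 9.69, 9.75 and 9.57 in plexinA2 arrays, a difference of -1.47 ± 0.30 (adjusted p = 0.00891). Its controls, from 9.47 to 10.22, also lay above all sema6A arrays. Both were called in all 8 fits leaving out 1 array. The complex I genes NDUFS8 and ECSIT, a subunit and an assembly factor, gave 0.84 ± 0.28 and 0.90 ± 0.29 and did not pass (adjusted p = 0.054 and 0.0503). Of the fits leaving out 1 array, only that without sema6A replicate 1 called them, at 1.05 and 1.09 (adjusted p = 0.00867 and 0.00929).

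Chaperone genes rose in 5 of 36 rows, or 13.9%, and none fell, beside 5.77% of all rows higher and 8.71% lower. DNAJC25, a J-domain protein, measured 11.44, 11.56, 11.96 and 11.68 in sema6A and 9.21, 10.90, 9.66 and 10.97 in plexinA2 replicates 1 to 4. The sema6A arrays were close together and above a wider plexinA2 group, at 1.48 ± 0.36 (limma adjusted p = 0.0182). HSP90AA1, the inducible cytosolic Hsp90, measured 12.57, 13.36, 13.16 and 12.27 in sema6A against 11.42, 12.15, 11.64 and 11.93 in plexinA2 arrays, a difference of 1.05 ± 0.29 (adjusted p = 0.0298). The co-chaperone genes dnajb6b and FKBP5 rose by 1.09 ± 0.27 and 0.97 ± 0.26, and dnajc3a, a J-protein of the endoplasmic reticulum, by 1.06 ± 0.26. None of the 5 kept its call in all 8 fits leaving out 1 array, and the largest adjusted p among them was 0.0941, for HSP90AA1 without plexinA2 replicate 1. HSPA8, the constitutive Hsp70, gave 0.55 (95% interval -0.10 to 1.20, adjusted p = 0.208), and CALR, a chaperone of the endoplasmic reticulum, 0.08 (95% interval -0.53 to 0.69). HSPA8 and CALR were chosen with their values known.

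Outside these tissues, the largest named rise in sema6A morphants was in npm2b, a nucleoplasmin gene known for maternal expression in the egg. It measured 9.52, 9.42, 8.78 and 8.91 in sema6A and 7.51, 6.58, 7.44 and 6.85 in plexinA2 replicates 1 to 4. The difference of npm2b was 2.06 ± 0.29 (limma adjusted p = 0.0008), and its controls were 9.64, 8.57, 9.84 and 7.85. Groups without overlap were a condition for naming the largest rises. SRPRA, a subunit of the receptor that docks ribosomes at the endoplasmic reticulum, rose by 1.75 ± 0.27 and brf2, a factor of RNA polymerase III, by 1.51 ± 0.26. B3GNT9, a glycosyltransferase, rose by 1.41 ± 0.24 and ldlrb, a lipoprotein receptor, by 1.35 ± 0.29. Those 5 calls held whichever array was left out, as did those of ncoa7a, cimap1d, prss60.1 and cyp2x7, at 1.41 to 1.49. The retinoid-binding gene rbp7a rose by 1.91 ± 0.52, from sema6A levels of 10.95, 9.02, 7.85 and 7.54 against 6.98, 7.13, 6.77 and 6.82, and lost its call in 5 of 8 such fits; without sema6A replicate 1 it was 1.21 (adjusted p = 0.00993).

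In the semaphorin pathway itself, 4 of 22 measured semaphorin, plexin and neuropilin rows fell and none rose, with a median of -0.61. Over all rows, 8.71% fell and 5.77% rose. Without sema6A replicate 1, 6 of the 22 rows fell, beside 15.7% of all rows. PLXNB1, a receptor of class 4 semaphorins, measured 9.30, 8.62, 8.60 and 9.69 in sema6A and 10.28, 10.04, 10.46 and 10.13 in plexinA2 replicates 1 to 4. The groups of PLXNB1 did not overlap, with a difference of -1.18 ± 0.28 (limma adjusted p = 0.0184). SEMA5B and SEMA3F, a transmembrane and a secreted ligand, fell by 1.13 ± 0.32 and 0.89 ± 0.26, and plxnb2b by 0.78 ± 0.26. A second SEMA3F row gave -0.32 (adjusted p = 0.359). These 4 calls were lost in 3 to 7 of 8 fits leaving out 1 array, at up to 0.133.

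Other axon guidance genes fell in 10 of 26 rows, and 25 values were below 0. NTN1, encoding the secreted cue netrin, measured 9.03, 9.54, 9.08 and 9.60 in sema6A and 10.57, 10.63, 10.81 and 10.63 in plexinA2 replicates 1 to 4. Its groups were about 1 unit apart and each was narrow, at -1.35 ± 0.25 (limma adjusted p = 0.00561), called in all 8 fits leaving out 1 array. The Slit ligands SLIT3 and SLIT1 fell by 0.94 ± 0.25 and 0.92 ± 0.27, their receptor ROBO3 by 0.84 ± 0.26, and the Eph receptors EPHA3, EPHB1 and EPHB2 by 1.23 ± 0.27, 0.81 ± 0.25 and 0.79 ± 0.25. SLIT3, SLIT1, ROBO3 and the 3 Eph receptors lost their calls in 1 to 6 of those fits. Neuronal genes fell in 6 of 38 rows, with MYT1, a zinc finger factor of neurogenesis, at -1.75 ± 0.33 and the adhesion gene NCAM1 at -0.98 on both of its rows. Cell cycle genes had 1 call of 38, a rise of MCM6 on 1 of its 2 rows, and a median of 0.09. Of the remaining lists, 1 of 9 neural crest rows fell, 2 of 27 notochord, hatching gland and epidermis rows rose and 3 fell. Among immune rows 1 of 29 rose and 4 fell. None of 16 yolk and lipoprotein rows was called at an adjusted p under 0.05 with or without sema6A replicate 1. All these counts of the 8-array fit stand beside 8.71% of all rows lower and 5.77% higher, and the lists were not tested against those shares.

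Genes of the p53 response, which injected morpholinos are known to induce in zebrafish, were set beside the tissue results. Of 28 such rows 4 fell and 1 rose between the morphants, with a median of -0.23, beside 8.71% of all rows lower and 5.77% higher. The list score lay between -0.47 and 0.26 in all 8 morphant arrays and between -1.39 and -0.97 in the 4 controls. PHLDA3, a p53 target chosen after its values were seen, measured 12.60, 12.12, 11.94 and 11.81 in sema6A and 12.10, 12.29, 11.71 and 12.10 in plexinA2 replicates 1 to 4, against 8.14 to 8.71 in controls. The morphants overlapped, with a difference of 0.07 (95% interval -0.48 to 0.62, limma adjusted p = 0.868). The pro-apoptotic gene bbc3 fell by 0.98 ± 0.29 and SESN1 by 1.08 ± 0.31, both calls being lost in 7 of 8 fits leaving out 1 array. The gene sesn2 rose by 0.82 ± 0.24, a call lost in 6 of 8 such fits. The part of p53 activity in the tissue differences was not tested.

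The control arrays, which did not enter the fit, were placed beside the calls. In 571 of the 743 called rows the control mean lay between the 2 morphant means, against 2173 of all 5134 rows. Among the 447 rows lower in sema6A it lay between them in 334, below the sema6A mean in 57 and above the plexinA2 mean in 56. Among the 296 rows higher in sema6A it lay between in 237, above the sema6A mean in 8 and below the plexinA2 mean in 51. Called rows have a wide gap between the morphant means, which leaves more room for a value in between. Control arrays varied more than either morphant group, so these positions carry no test.

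Differences also varied with gene length, taken from RefSeq for 4187 of the 4349 named rows. The median difference was 0.12, 0.21, 0.11, -0.06 and -0.41 from the shortest to the longest of 5 equal groups of genes. Calls lower in sema6A made up 6.09% of the shortest group and 15% of the longest, and calls higher 5.01% and 1.79%. In the longest group every sema6A array had a median deviation below 0 (-0.23 to -0.10) and every plexinA2 array one above 0 (0.05 to 0.38), with controls at -0.39, -0.23, -0.36 and 0.18. Matrix genes are long, with 40% of rows in the longest group, and so are axon guidance genes, with 76.9%, and semaphorin, plexin and neuropilin genes, with 81.8%. Outside that group, the muscle median was -0.92 and the matrix median -0.83, against 0.10 for all rows outside it, with 23 muscle and 18 matrix rows called lower there. The axon guidance median over its 6 shorter rows was -0.63, with 1 called. The semaphorin, plexin and neuropilin median over its 4 shorter rows was -0.19 with no call, so all 4 calls of that list lay in the longest group. The part of gene length in each call was not tested.

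**Figure D5:**
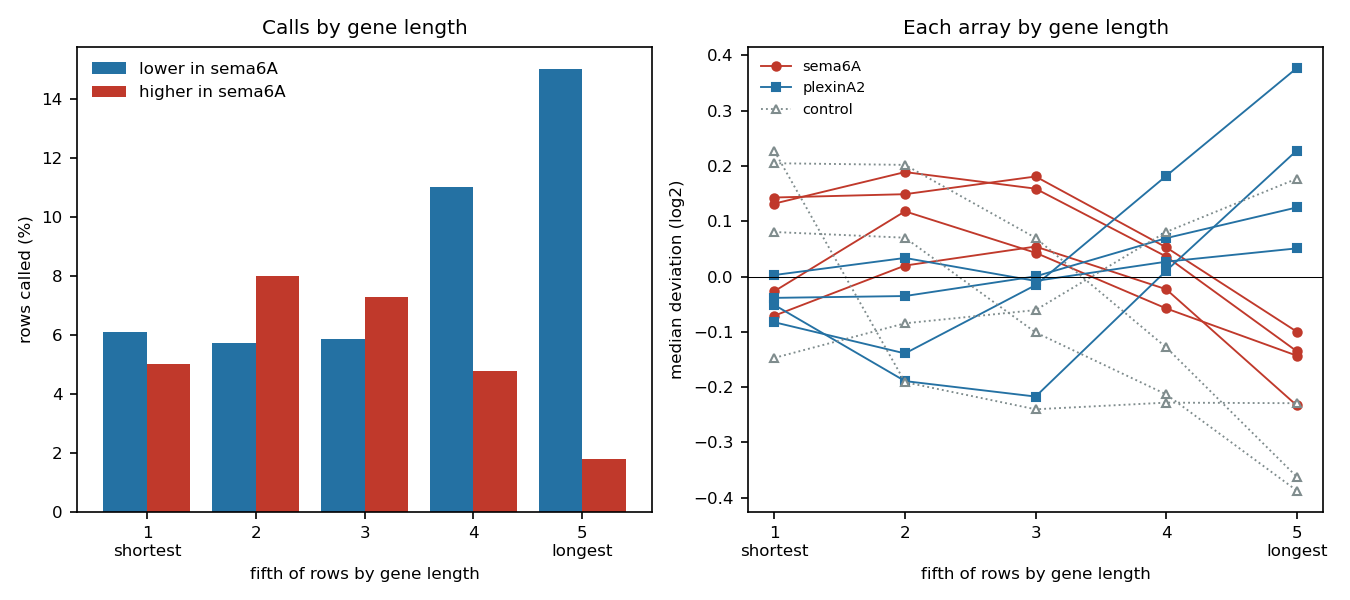
Left, percent of rows called lower (blue) or higher (red) in sema6A morphants in each of 5 groups of rows by gene length, 837 or 838 rows each. Right, the median deviation (log2) of each length group in each array, with circles for sema6A, squares for plexinA2 and open triangles for control arrays; in the longest group the sema6A arrays run from -0.23 to -0.10 and the plexinA2 arrays from 0.05 to 0.38.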

How the data were processed

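Embryo RNA was hybridised to NimbleGen zebrafish expression arrays, 12 in all. The deposited values are linear intensity, ranging from 26.3 to 42222 with array medians of 608 to 708. Per the submitters' processing notes they come from RMA (version not stated), a method of background correction, between-array normalization and probe summary. It compresses differences among dim probes and hides a shift of all genes together. Neither the choice of these 5134 rows nor the genome build is stated in the sources used here. The number of arrays limits the precision.

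Values were converted to log2 without a pseudocount, then modelled with limma 3.58.1 (R 4.3.3, lmFit and eBayes) to the 8 morphant arrays, with 6 residual and 10.6 prior degrees of freedom. Tests were two-sided, with Benjamini-Hochberg adjustment over 5134 rows. The script was tested on simulated data. Symbols came from a gene name table, in which 112 symbols stood on more than 1 row and upper-case symbols can stand for either paralogue. The members and the 30 gene lists were chosen with earlier results of these data known, and 9 wrongly matched names were removed after values were seen. The text names the 12 largest differences in each direction, called members of each list and up to 6 further members of a list by p. CALR, HSPA8, MYF5, MYF6, PHLDA3 and PSMB2 were chosen with their values known. The 12 in each direction were drawn only from called rows with a symbol whose groups did not overlap. Lack of overlap in those rows was thus fixed by the choice and is no added support. Gene length is the genomic span in RefSeq, matched by symbol. Alternatives were all 12 arrays in the fit, the replicate number as a block, leaving out the dimmest 25 percent of rows, quantile normalization, median centring, trend and robust moderation, array weights, an offset of 50, leaving out each array and, added after seeing the data, removal of the length trend.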

Additional observations from a re-analysis of the deposited data

Results flagged for a closer look

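In 8 of 60 groups of 4 arrays examined, 1 array stood apart from the other 3 by Dixon's criterion. Chance meets it in about 1 of 20 groups that were not chosen by their values. Most groups here were of genes with the largest differences in these same arrays, so that rate does not apply. The groups also share arrays and are not independent. Of the 8 arrays standing apart, 7 were sema6A replicate 1. Its muscle score was -1.28, against -0.27 to -0.13 in the other sema6A arrays. Its eye score was -0.387, against 0.05 to 0.07, and its mitochondrial score was -0.28, against 0.32 to 0.41. Levels in that array were 6.17 for myhz1.3, 8.66 for atp2a1, 6.45 for PYGM and 7.52 for ckma, each the lowest of the group. The eighth was the muscle score of plexinA2 replicate 2, at 0.53 against 0.49 in each of the other plexinA2 arrays, a gap of under 0.1 in a very narrow group.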

How the results depend on the processing

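Of 113 genes followed (the largest differences and called members of the 6 tissues), none changed direction under any alternative in which it was tested. These genes were chosen as called in the same arrays, and most had groups that did not overlap. Without overlap, the sign cannot change when 1 array is left out. The fits with all 12 arrays, the replicate block or trend moderation return the same difference by design. The kept direction is therefore no added support. The median differences of muscle, matrix, blood, mitochondria and chaperones kept their sign. With all 12 arrays in the fit, which adds the wider spread of the controls, 88 rows were called, 23 higher and 65 lower, all among the 743. In that fit 87 of the 113 genes lost their calls. Array weights called 2309 rows, 1160 higher and 1149 lower. Leaving out 1 array gave 163 to 1525 calls, 45 to 719 higher and 118 to 806 lower; all plexinA2 arrays and sema6A replicates 1, 2 and 3 moved the count by over 1.5 times. Such a fit has fewer residual degrees of freedom. The eye median moved from -0.0849 to -0.38 with the dimmest rows left out, and turned to 0.136 without sema6A replicate 1; it lay between -0.159 and 0.136 over fits leaving out 1 array, and the cause was not tested. With the length trend removed, chosen after seeing the data, 559 of 4187 rows were called, 290 higher and 269 lower, so 51.9% were higher; muscle fell in 25 rows and matrix in 26, with medians of -0.91 and -0.67. The other alternatives, dim rows left out, quantile normalization, centring, trend with robust moderation and the offset, called 679 to 837 rows.

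The replicate numbers did not pair the arrays: deviations of same-numbered arrays correlated at 0.0352 to 0.175, and no number's own pair was the highest. With the replicate block 818 rows were called, 305 higher and 513 lower, 688 of them among the 743.

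With 4 arrays per group the median SE of a difference was 0.28, and no difference under 0.72 was called.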

Other observations

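PSMB2, a core subunit of the proteasome chosen after its values were seen, set the sema6A arrays apart from all others. It measured 10.31, 11.53, 11.47 and 11.58 in sema6A, 13.70, 13.25, 13.22 and 13.30 in plexinA2 and 13.84, 13.60, 13.62 and 13.38 in control replicates 1 to 4. The difference between morphants was -2.15 ± 0.30 (limma adjusted p = 0.0008).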
